A study of Arabidopsis thaliana with 27 samples.

Results

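The comparison described here is that of Arabidopsis plants labelled 35S::GOX2 after 24 h of cadmium (Cd) with plants of the same label without Cd. It takes 6 of the 27 arrays of the series, 3 labelled 35S::GOX2 control and 3 labelled 35S::GOX2 with 100 μM Cd for 24 h, chosen by their titles alone. The whole series holds WT, a line with altered glycolate oxidase labelled gox2 (atgox on its untreated arrays) and 35S::GOX2. Each line was arrayed untreated, after a short exposure and after 24 h, on 3 single-color NimbleGen expression arrays a group. All plants are in the Columbia-0 background, and the 35S promoter of cauliflower mosaic virus drives a transgene in nearly all tissues. The labels name leaves as the material, with each replicate pooled from several plants, whereas the methods of the study describe RNA from seedlings. The short exposure is 0.5 h in the labels and in the study's own list of profiles, and longer in its methods. How many transgenic lines stand behind the 35S::GOX2 label is not given in the sources used here.

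Glycolate oxidase works in the peroxisome during photorespiration, where it oxidizes glycolate to glyoxylate and releases H2O2, which catalase removes. Cd binds thiols, so that plants exposed to it draw on sulfate assimilation, glutathione and the phytochelatins made from glutathione. Cd also enters roots through carriers of iron, zinc and other metals, and these carriers are themselves regulated by the metals they move.

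Values are log2 of the deposited intensity after quantile normalization over the 27 arrays, and a change is the mean of the 24 h arrays minus that of the control arrays. An adjusted p is that of limma's moderated test, two-sided, with Benjamini-Hochberg adjustment over all features, and a gene rose or fell when it was under 0.05. The deposited array medians ran from 10.02 to 10.17. The 3 control arrays lay close together, with a correlation of 0.85 to 0.91 once each feature's mean over the 27 arrays was taken away. The 24 h arrays did not. Replicates 1 and 3 correlated at 0.78 with each other, while replicate 2 had a correlation of 0.04 with replicate 1 and was closest to replicate 2 of the 35S::GOX2 arrays with the short exposure (0.80) and to replicate 2 of the gox2 arrays at 24 h (0.72). Beside each other, replicates 1 and 3 were closest to replicate 1 of the untreated atgox arrays (0.68 and 0.72). Replicate 2 differed from the mean of replicates 1 and 3 by at least 1 for 1706 features (4.60%), against 96 features (0.259%) between replicates 1 and 3. Its value is therefore shown where a gene is given array by array. A change given alone is the mean of all 3 arrays at 24 h, in which replicate 2 may differ. The control arrays were on slide 1 and the 24 h arrays on slide 3, so that slide and treatment cannot be told apart in this comparison.

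The gene that names the line went against its label. GOX2 (AT3G14415) measured 9.79, 9.65 and 9.60 on the control arrays and 14.35, 14.01 and 14.28 on the 24 h arrays. The increase of 4.53 (SE 0.12, adjusted p = 5.59e-16) started from a low control level. Untreated WT arrays had a mean of 13.73 ± 0.04 (SD, n = 3), and the other 21 arrays ran from 9.79 to 14.21. Low values were also found on the arrays labelled gox2 with the short exposure (mean 9.94) and WT with the short exposure (mean 10.30). Because the arrays labelled 35S::GOX2 control held less GOX2 RNA than those of WT, every direction given below is that between arrays as labelled, and which plants were on the control arrays was not tested.

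AT5G03090, a locus with no symbol in the gene table used, had the same distribution over the groups. It measured 7.47, 7.10 and 7.07 on the control arrays and between 11.98 and 12.19 at 24 h, a rise of 4.84 (SE 0.15, adjusted p = 9.30e-15). Its 3 control values were below all other 21 arrays, which started at 7.61. These were the largest rises of all features past the threshold whose arrays did not overlap, and for both genes replicate 2 lay with the other 24 h arrays.

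**Figure D1:**
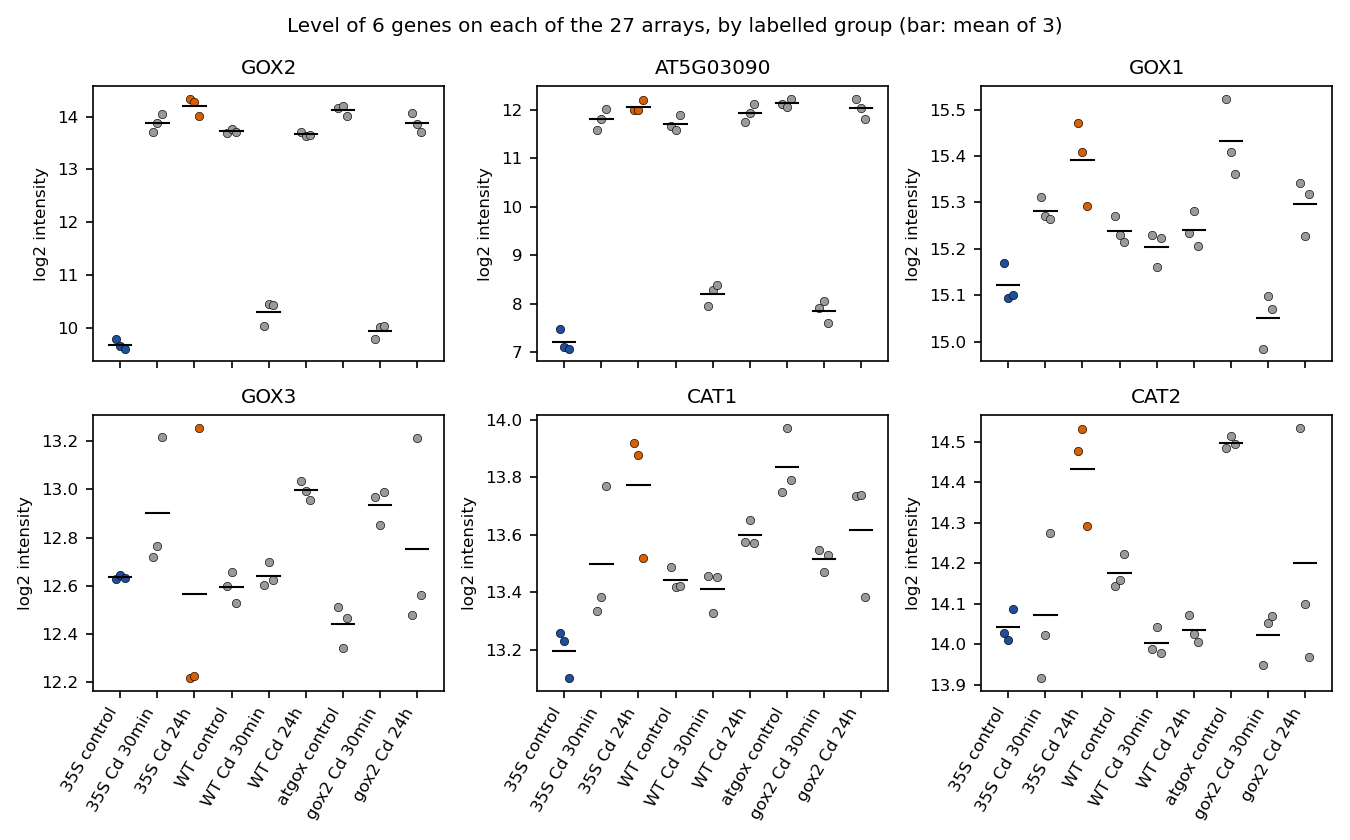
Log2 intensity of GOX2, AT5G03090, GOX1, GOX3, CAT1 and CAT2 (y axis) on each array of the 9 labelled groups (x axis), with a bar at the mean of 3 arrays, the 35S::GOX2 control in blue and 24 h of Cd in orange. GOX2 and AT5G03090 are low in 3 groups, the 35S::GOX2 control among them (mean of GOX2 9.68), and GOX3 separates replicate 2 at 24 h (13.25) from replicates 1 and 3 (12.22 each).

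Of the remaining glycolate oxidases and their relatives, GOX1, the main leaf form beside GOX2, measured 15.17, 15.09 and 15.10 on the control arrays and 15.47, 15.29 and 15.41 at 24 h. Its rise of 0.27 (SE 0.06, adjusted p = 0.00116) was small, and the 6 features of GOX1 had changes from 0.20 to 0.72. GOX1 and GOX2 are near-identical in sequence, and cross-hybridization between their probes was not tested. GOX3, a form active in roots, was 12.63, 12.64 and 12.63 in the control and 12.22, 13.25 and 12.22 at 24 h, so that its change of −0.07 (adjusted p = 0.805) was the sum of opposite shifts. Without replicate 2 it was −0.41 (adjusted p = 0.0368). HAOX2, one of the related 2-hydroxy acid oxidases, fell from 11.89, 11.87 and 11.84 to 11.61, 11.43 and 11.54, a change of −0.34 (SE 0.10, adjusted p = 0.011). HAOX1 had a change of −0.08 that did not pass the threshold.

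Of the 3 catalases 2 rose at 24 h. CAT1 measured 13.26, 13.23 and 13.10 in the control and 13.92, 13.52 and 13.88 at 24 h, a rise of 0.58 (SE 0.11, adjusted p = 0.0006). CAT2, the main catalase of photorespiring leaves, rose from 14.03, 14.01 and 14.09 to 14.48, 14.29 and 14.53, by 0.39 (SE 0.11, adjusted p = 0.0056). Both sets of arrays stood clear of each other, and replicate 2 was the lowest 24 h array for both genes. Untreated atgox arrays had means of 13.84 for CAT1 and 14.50 for CAT2, near the 24 h means of 13.77 and 14.43. CAT3 read 15.78 on all 3 control arrays and 15.72 to 15.74 at 24 h, near the upper end of the intensity scale, with a change of −0.04 (adjusted p = 0.53).

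The number of features that changed was large. Of 37118 features, 16279 (43.9%) passed the threshold, 8767 (23.6%) higher and 7512 (20.2%) lower at 24 h. Counted with 1 feature per locus, 43% of 32627 loci passed, 21.9% higher and 21.1% lower, the shares against which the gene lists are read. The arrays of both groups did not overlap for 20294 features (54.7%), higher at 24 h for 29.5% and lower for 25.2%. Without adjustment 19162 features (51.6%) had a p under 0.05. Most shifts were small, since 3168 features (8.53%) also changed by at least 1, of which 1266 were higher and 1902 lower. The median change over all features was 0.04. When slide was entered as a random block, 10594 features passed.

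The position of both groups was also set against the other 21 arrays. Over all 37118 features, 7.64% had all 3 control arrays beyond the range of those arrays and 0.636% all 3 of the 24 h arrays, a group that holds the diverging replicate 2. Of the 16279 features that passed, 2693 (16.5%) had all 3 control arrays beyond the range of the other 21 arrays, and 231 (1.42%) had all 3 of the 24 h arrays beyond it. For 13391 features (82.3%) neither group was outside that range.

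**Figure D2:**
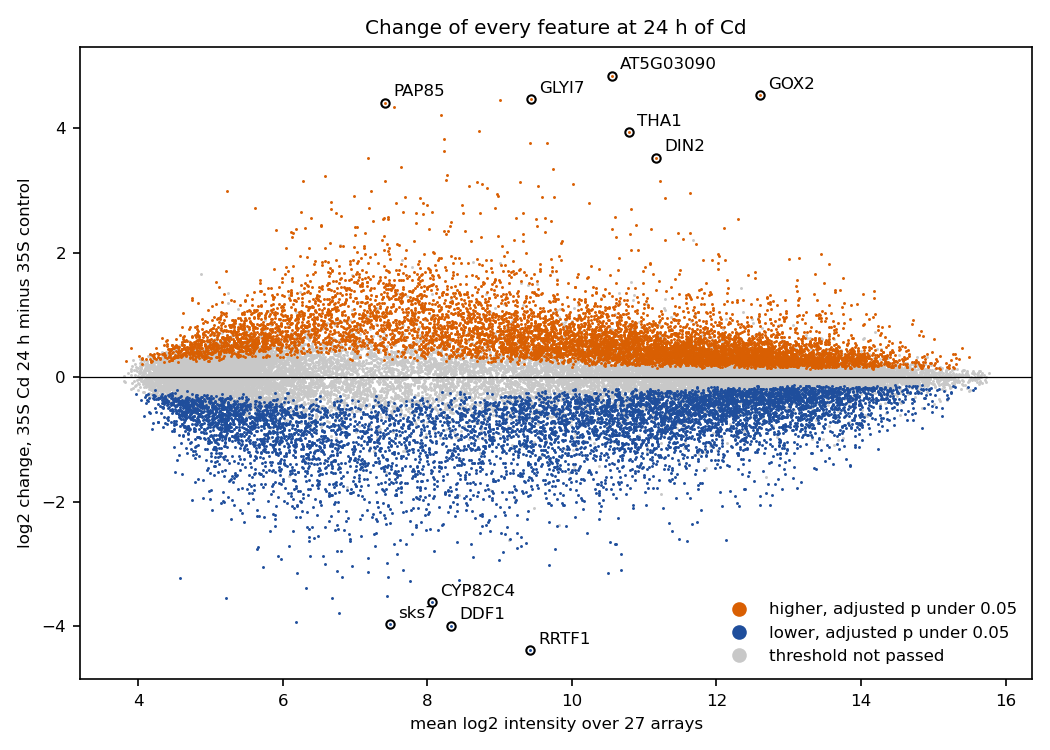
Change at 24 h of Cd against the 35S::GOX2 control (y axis, log2) by mean log2 intensity over 27 arrays (x axis) for 37118 features, with those past an adjusted p of 0.05 in orange (8767 higher) and blue (7512 lower). The named genes mark the ends of the distribution, from AT5G03090 (4.84) to RRTF1 (−4.39).

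Among the 12 genes with the largest rise were enzymes of amino acid and sugar breakdown. THA1, a threonine aldolase that splits threonine into glycine and acetaldehyde, measured 9.26, 9.36 and 9.34 in the control and 14.79, 10.35 and 14.65 at 24 h, a rise of 3.94 (SE 0.95, adjusted p = 0.00246). BCAT-2, a branched-chain amino acid transaminase, went from 6.85, 6.76 and 6.84 to 12.22, 7.50 and 12.22, a rise of 3.83 (SE 0.88, adjusted p = 0.00184). DIN2, the dark-inducible beta-glucosidase BGLU30, rose from 9.61, 9.73 and 9.65 to 13.27, 13 and 13.30, by 3.53 (SE 0.96, adjusted p = 0.00581). For THA1 and BCAT-2 replicate 2 was above the control arrays but far below replicates 1 and 3. For DIN2 the 3 arrays at 24 h were alike. The untreated arrays labelled atgox had means of 14.37 for THA1 and 11.20 for BCAT-2, between replicate 2 and the other 24 h arrays. For DIN2 their mean was 13.18, beside a 24 h mean of 13.19.

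GLYI7, a homolog of glyoxalase I, the enzyme that begins the removal of methylglyoxal, was 7.52, 7.50 and 7.99 in the control and 13.44, 9.62 and 13.34 at 24 h. Its rise was 4.46 (SE 0.91, adjusted p = 0.000741). AT4G15990, with no symbol in the gene table, behaved in the same way, with 6.88, 6.85 and 6.14 in the control, 11.85, 8.15 and 11.76 at 24 h and a rise of 3.96 (SE 0.66). In both cases replicates 1 and 3 were high and replicate 2 was in between. Untreated atgox arrays had means of 12.55 for GLYI7 and 10.61 for AT4G15990, near the 24 h means of 12.13 and 10.59. Another group of loci without a symbol rose on all 3 arrays, to an extent that differed with replicate 2. AT5G55150 went from 5.67, 5.23 and 5.30 to 9.13, 10.62 and 9.12, a rise of 4.22 (SE 0.90), and AT1G09500 from 7.86, 7.93 and 7.73 to 11.49, 11.93 and 11.38, a rise of 3.76 (SE 0.92). AT5G15420, AT4G32630 and AT4G28811 completed the set with rises of 4.45, 3.77 and 3.63. For AT4G32630 and AT4G28811 untreated WT arrays had means of 10.05 and 9.48, close to the 24 h means of 10.54 and 9.19 and far above the control means of 6.77 and 5.56. Untreated atgox arrays had means of 11.70 for AT1G09500 and 10.72 for AT5G15420, near the 24 h means of 11.60 and 10.79. Their means were below those at 24 h for AT5G55150, AT4G32630 and AT4G28811 (8.53, 8.15 and 7.25).

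The largest fall was in RRTF1, a redox-responsive transcription factor of the ERF family that is induced within minutes of wounding or light stress. It measured 12.60, 12.36 and 12.34 in the control and 8.09, 7.94 and 8.10 at 24 h, a change of −4.39 (SE 0.94, adjusted p = 0.00101). DDF1, an AP2 factor of the DREB1 family, fell from 11.33, 11.15 and 11.03 to 7.12, 7.41 and 7.01, a change of −3.99 (SE 0.91, adjusted p = 0.00165). The 6 arrays formed tight and separate sets for both genes. Untreated WT arrays had means of 8.74 for RRTF1 and 7.36 for DDF1, nearer to the 24 h than to the control arrays. The next highest groups were the 35S::GOX2 arrays with the short exposure, with means of 11.03 and 9.81, and gox2 at 24 h, with 10.29 and 9.34, and at least 1 of the other 21 arrays reached the lowest control array.

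A pair of related cytochrome P450 genes also fell. CYP82C4, which hydroxylates coumarins that iron-deficient roots secrete, was 10.75, 10.69 and 10.33 in the control and 7.57, 5.48 and 7.87 at 24 h, a change of −3.62 (SE 0.91, adjusted p = 0.00348). CYP82C3 fell from 10.06, 10.14 and 9.72 to 6.52, 6.73 and 6.82, a change of −3.28 (SE 0.43, adjusted p = 2.47e-05). All control arrays of CYP82C3 were above the other 21 arrays. The other 8 of the 12 largest falls were of genes with low 24 h levels, with group means from 4.52 to 7.97. They were sks7, a relative of multicopper oxidases, CID13, a protein with a domain that binds poly(A)-binding protein, AT1G20925 (PILS1, a PIN-like auxin carrier), 3 loci without a symbol or known only by code (AT2G04370, AT5G14602 and AT2G05370) and 2 pseudogenes (AT3G60170 and AT3G31161). Untreated WT arrays had means from 4.25 to 6.86 for these genes. The next highest group was WT with the short exposure (means from 6.39 to 10.01), except for AT3G60170. That pseudogene had a mean of 8.71 on the gox2 arrays with the short exposure, above the control mean of 8.23. Both of these short-exposure groups also had low GOX2.

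**Figure D3:**
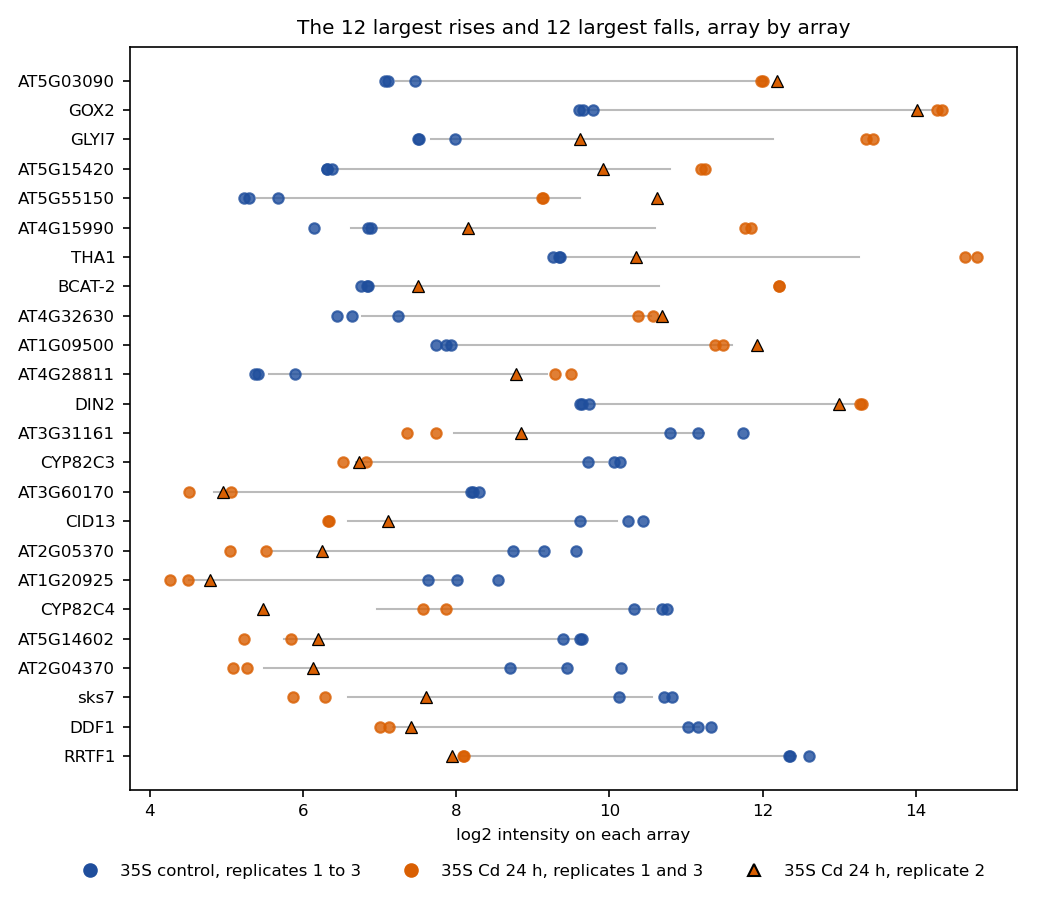
Log2 intensity (x axis) of the 12 genes with the largest rise and the 12 with the largest fall (y axis) on the 3 control arrays (blue circles), on replicates 1 and 3 at 24 h (orange circles) and on replicate 2 at 24 h (triangles), with a line between the group means. For THA1 and BCAT-2 the triangle lies nearer to the control than to the other 24 h arrays (10.35 and 7.50). For GLYI7 and AT4G15990 it lies in between (9.62 and 8.15), whereas for GOX2, DIN2 and RRTF1 it lies with the other 24 h arrays.

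Peroxisomal genes outside the glycolate oxidases were, as a list, more often higher than lower. Of 25 genes of peroxisome biogenesis and beta-oxidation, 13 rose and 2 fell, against 21.9% and 21.1% of all loci, with a median change of 0.23 against 0.02 over all loci. The PEX11 proteins, which elongate peroxisomes before they divide, were among the largest changes. PEX11D measured 12.65, 12.56 and 12.59 in the control and 13.45, 13.02 and 13.41 at 24 h, a rise of 0.69 (SE 0.12, adjusted p = 0.000258), and PEX11A rose by 0.65 and PEX11C by 0.50. PEX7, the receptor that imports proteins with a type 2 targeting signal, rose from 10.27, 10.01 and 9.85 to 10.97, 10.45 and 10.86, by 0.72 (SE 0.12). The fall with the larger size was that of KAT5, a thiolase of beta-oxidation, with a change of −0.58. Every array at 24 h was above every control array for the 4 PEX genes named.

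The photorespiration list moved less. Of its 17 genes 5 rose, GOX2 and GOX1 among them, 1 fell and 11 did not pass the threshold, and its median change was 0.02. Past the threshold were 35.3% of the list, against 43% of all loci. GDCH3 (AT1G32470), an H protein of the glycine decarboxylase complex, measured 14.34, 14.37 and 14.31 in the control and 14.74, 14.70 and 14.82 at 24 h, a rise of 0.41 (SE 0.07, adjusted p = 0.00029). AGT, the peroxisomal serine:glyoxylate aminotransferase, rose by 0.29 (adjusted p = 0.0258), with replicate 2 at 14.95 and so level with the highest control array. It did not pass with slide as a random block (adjusted p = 0.0891) or when any single array other than replicate 2 at 24 h was left out (adjusted p = 0.0501 to 0.126). BASS6 (AT4G22840), a glycolate carrier of the chloroplast, went from 10.69, 10.61 and 10.53 to 10.03, 10.26 and 9.99 and had a change of −0.52 (SE 0.15, adjusted p = 0.00961). The count of genes that rose was 3 when any single array other than replicate 2 at 24 h was left out.

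Genes of sulfate uptake and reduction and of Cd chelation were lower at 24 h. Of 29 genes 18 fell and 1 rose, against 21.1% and 21.9% of all loci. The other 10 did not pass the threshold, and the median change was −0.51. ATSDI1, a marker of sulfur deficiency that represses glucosinolate synthesis, measured 13.49, 13.49 and 13.40 in the control and 10.94, 12.42 and 10.85 at 24 h, a change of −2.05 (SE 0.44, adjusted p = 0.00109). LSU2, another gene induced by low sulfur, fell from 12.80, 12.80 and 12.79 to 10.34, 11.93 and 10.32, a change of −1.94 (SE 0.45, adjusted p = 0.002). Replicate 2 took an intermediate value in both genes. AT5G26220 (GGCT2;1), a gamma-glutamyl cyclotransferase that breaks down glutathione, and LSU1 had changes of −1.42 and −1.18, but replicate 2 lay among the control arrays for both, and neither passed the threshold with slide as a random block (adjusted p = 0.0759 and 0.121). Without replicate 2 the changes were −2.17 and −1.89.

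The enzymes that reduce activated sulfate fell together, with changes of −0.86 for APR1, −0.67 for APR3 and −0.46 for APR2. Of the sulfate carriers, SULTR4;2 of the vacuole had a change of −0.86 and SULTR1;2, the main root uptake carrier, of −0.51. SULTR1;1 was 11.61, 11.72 and 11.63 in the control and 10.44, 12.12 and 10.75 at 24 h, and its change of −0.55 (adjusted p = 0.178) did not pass, with replicate 2 above the control. Without replicate 2 it was −1.06 (adjusted p = 0.0041). Both phytochelatin synthases fell. CAD1 measured 14.26, 14.29 and 14.14 in the control and 13.43, 13.47 and 13.47 at 24 h, a change of −0.77 (SE 0.14, adjusted p = 0.00026), and PCS2 had a change of −1.003 (SE 0.13, adjusted p = 2.72e-05). HMA3, which pumps Cd and zinc into the vacuole, and HMA2, which exports them from cells around the vasculature, had changes of −0.99 and −1.15. GSH1, the first enzyme of glutathione synthesis, was the gene of the list that rose, by 0.15 (adjusted p = 0.0353), and it did not pass without replicate 1, 2 or 3 of the 24 h arrays or without replicate 1 or 2 of the control.

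The iron deficiency genes held some of the largest falls. Of 24 genes 8 fell and 1 rose, against 21.1% and 21.9% of all loci. The other 15 did not pass the threshold, and the median change was −0.50. FRO2, the ferric reductase of the root surface, measured 12.82, 12.81 and 12.67 in the control and 10.19, 8.48 and 10.36 at 24 h, a change of −3.09 (SE 0.90, adjusted p = 0.00918). IRT1, the iron carrier through which Cd also enters, fell from 13.78, 13.75 and 13.58 to 11.60, 9.84 and 11.84, a change of −2.61 (SE 0.79, adjusted p = 0.0111), which without replicate 2 was −1.99 (adjusted p = 0.063). Replicate 2 was the lowest of the 6 arrays for CYP82C4, FRO2 and IRT1. FRU (FIT), the bHLH factor that activates FRO2 and IRT1, had a change of −0.99 (SE 0.28, adjusted p = 0.00778), and PYE, a factor that restrains iron deficiency genes, rose from 12.11, 11.89 and 11.86 to 12.50, 12.49 and 12.51, by 0.55 (SE 0.12). The count of genes that fell was 4 with slide as a random block and 4 or 5 when any single array other than replicate 2 at 24 h was left out.

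Many of these genes are expressed mainly in roots, and markers of root cell types moved in the same direction. Of 19 root markers 9 fell, against 21.1% of all loci, and 10 did not pass the threshold. Their mean log2 level was 10.73 to 10.85 on the control arrays and 9.81 (replicate 2) to 10.36 at 24 h. COBL9 and EXPA18 of root hairs had changes of −0.96 and −0.89 (COBL9 is listed as SHV2), PLT1 and PLT2 of the root meristem −1.21 and −1.13, and CASP4 of the endodermis −1.16. CASP1 and CASP5, of the same family, did not pass the threshold. CASP1 measured 14.11, 14.16 and 14.18 in the control and 13.47, 12.26 and 13.67 at 24 h. A defining endodermal gene was thus strongly expressed in material the labels call leaves. Of 16 leaf markers 2 fell (12.5%, against 21.1% of all loci) and 14 did not pass the threshold. The mean level of the leaf markers was 14.42 to 14.45 in the control and 14.33 to 14.40 at 24 h. A smaller share of root cells and less RNA per root cell cannot be told apart in whole tissue, and the part of root content in the results for sulfur, iron and suberin genes was not tested.

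Suberin genes, of the endodermal barrier, were lower as well, with 6 of 12 fallen, against 21.1% of all loci. The other 6 did not pass the threshold, and the median change was −0.47. CYP86A1, which hydroxylates suberin fatty acids, measured 11.74, 11.90 and 11.91 in the control and 10.49, 9.86 and 10.42 at 24 h, a change of −1.59 (SE 0.32, adjusted p = 0.000629). FAR5 had a change of −1.10 and RWP1 (ASFT) of −0.86, the latter with replicate 2 at 12.41 and replicates 1 and 3 at 11.36 and 11.52. Of the 4 ferritin genes, which store iron, 0 passed the threshold, and 0 had an unadjusted p under 0.05 by limma. FER1 was 14.50, 14.37 and 14.44 in the control and 14.63, 14.20 and 14.64 at 24 h, a difference of 0.06 (adjusted p = 0.641), and FER4 had a difference of 0.16 (adjusted p = 0.235). Without replicate 2 both passed, with 0.20 and 0.28 (adjusted p = 0.0251 and 0.0432), and 1 other ferritin passed as lower.

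Copper and zinc genes went both ways, with 6 of 19 risen and 6 fallen, 63.2% of the list against 43% of all loci. The copper-zinc superoxide dismutases and their chaperone rose. CSD2, the chloroplast form, measured at most 11.18 in the control and 13.70, 12.09 and 13.52 at 24 h, a rise of 1.99 (SE 0.38, adjusted p = 0.000438). CCS rose by 1.198 (SE 0.24) and CSD1 by 1.06 (SE 0.13), each with replicate 2 as the lowest 24 h array. In contrast FRO5 and FRO4, the reductases for copper uptake, fell from 12.53, 12.80 and 12.77 to 10.63, 11.84 and 11.29 and from 12.43, 12.64 and 12.50 to 11.33, 11.37 and 11.55, with changes of −1.45 and −1.11.

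**Figure D4:**
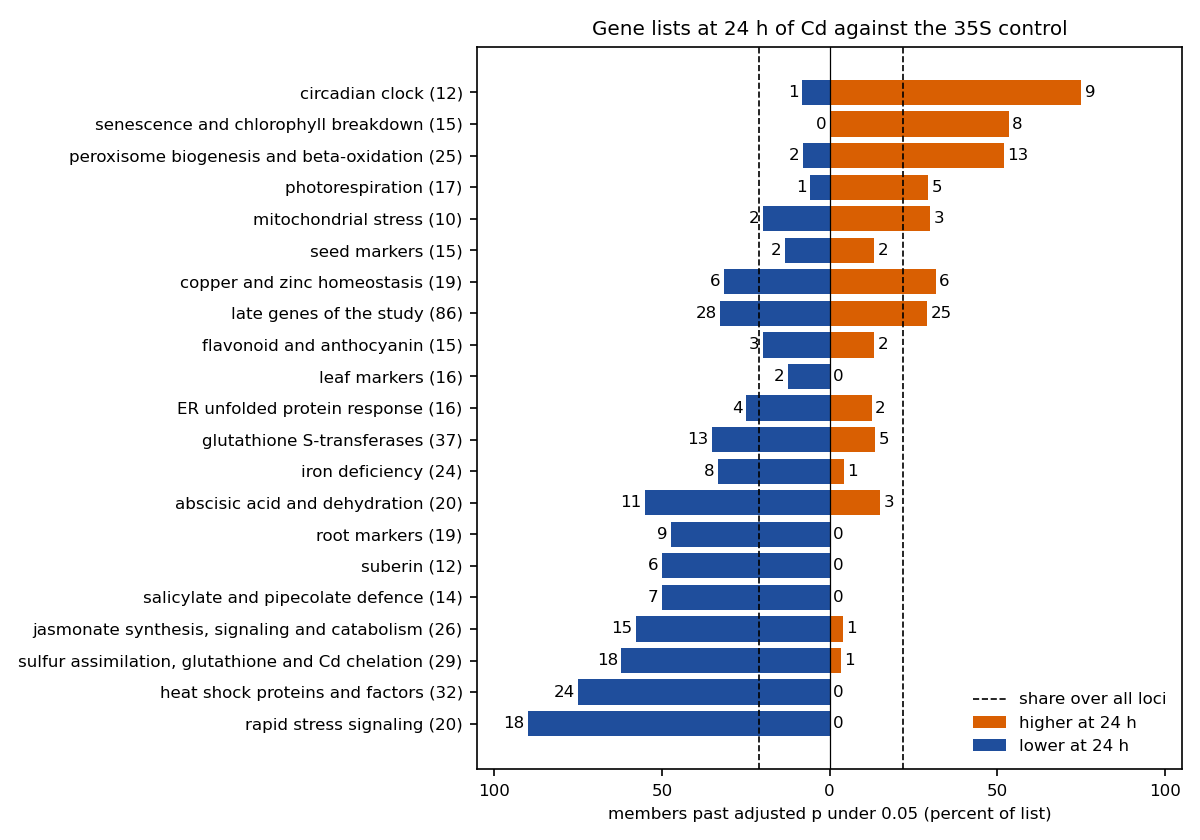
Share of each gene list with at least 10 genes (y axis, number of genes in parentheses) that was higher (orange, right) or lower (blue, left) at 24 h at an adjusted p under 0.05, in percent of the list (x axis), with the count beside each bar and the shares over all loci as dashed lines (21.9% and 21.1%). Rapid stress signaling (18 of 20) and heat shock genes (24 of 32) hold the highest shares of lower genes, and clock genes (9 of 12) the highest share of higher genes.

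Stress genes with a fast response were high in the control and lower at 24 h. In the list of rapid stress signaling 18 of 20 genes fell, against 21.1% of all loci, and 2 did not pass the threshold. The median change was −0.99. Next to RRTF1, ERF13 measured 10.72, 10.70 and 10.76 in the control and 7.47, 8.59 and 7.87 at 24 h, a change of −2.75 (SE 0.60, adjusted p = 0.00117). CML37, a calmodulin-like protein, fell from 11.78, 11.59 and 11.61 to 9.26, 10.76 and 9.31, a change of −1.89 (SE 0.35, adjusted p = 0.00037). WRKY40, ZAT10 (listed as STZ) and MPK3 had changes of −1.32, −1.23 and −1.01. The mean of the list relative to each gene's mean over the 27 arrays was 0.72 to 0.78 on the control arrays, −0.55 and −0.56 on replicates 1 and 3 at 24 h and −0.16 on replicate 2. Untreated WT arrays lay at −0.32 to −0.28 by this measure, within the range of the 24 h arrays and below the control. The 35S::GOX2 arrays with the short exposure lay at 0.85 and 0.82 on replicates 1 and 3, above the control. Their replicate 2 lay at −0.12.

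Jasmonate genes were lower as well, with 15 of 26 fallen, 1 risen and a median change of −0.86. LOX4 and LOX3, lipoxygenases at the start of jasmonate synthesis, measured 13.33, 13.23 and 13.39 against 10.69, 10.78 and 10.55, and 11.85, 11.86 and 11.79 against 9.76, 9.72 and 9.79, with changes of −2.64 (SE 0.59) and −2.08 (SE 0.49). Here replicate 2 lay with the other 24 h arrays. Further steps fell too, with changes of −1.79 for AOC3 and −1.14 for OPCL1. OPR3, the peroxisomal reductase of the pathway, measured 14.29, 14.07 and 14.04 in the control and 13.22, 13.27 and 13.28 at 24 h, a change of −0.88 (SE 0.17). The repressors JAZ7, JAZ5, JAZ10 and JAZ1 had changes of −2.48, −1.95, −1.42 and −1.04, and CYP94B3 and CYP94C1, which inactivate the hormone, of −1.78 and −1.65. MYC2, the central activator, had a change of −0.84 (adjusted p = 0.0109), and JAZ12 was the gene that rose, by 0.43 (adjusted p = 0.00523).

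Heat shock genes fell in 24 of 32 cases, against 21.1% of all loci, with 8 not past the threshold and a median change of −0.64. Relative to each gene's mean over the 27 arrays, the list lay at 0.43 to 0.54 on the control arrays. It lay at −0.30 to −0.22 at 24 h and at −0.39 to −0.32 on untreated WT arrays. On the 35S::GOX2 arrays with the short exposure it lay at 0.43 on replicates 1 and 3 and at −0.12 on replicate 2. HSFA2, the heat shock factor that sustains acclimation, measured 13.56, 13.47 and 13.48 in the control and 11.17, 11.83 and 11.28 at 24 h, a change of −2.07 (SE 0.54, adjusted p = 0.00421). BAG6, a co-chaperone, fell from 13.48, 13.43 and 13.45 to 11.82, 11.77 and 11.76, a change of −1.67 (SE 0.40, adjusted p = 0.00233). AT-HSFA7B and the small heat shock protein AT1G59860 had changes of −1.60 and −1.41, and HSP101, the disaggregase, of −0.82. The highly expressed HSP81-2 (HSP90.2) had a change of −0.49, so that falls were found from low to near-maximal intensity. In the unfolded protein response of the endoplasmic reticulum, 4 of 16 genes fell and 2 rose, 37.5% of the list against 43% of all loci. BIP3, a strongly inducible chaperone of this response, went the other way from the cytosolic ones, from 7.86, 8.14 and 8.48 to 9.81, 9.93 and 9.87, a rise of 1.71 (SE 0.39, adjusted p = 0.00175).

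Salicylate and pipecolate genes fell in 7 of 14 cases, against 21.1% of all loci, with a median change of −0.32. NIMIN1, which binds the salicylate receptor NPR1, measured 8.58, 8.96 and 9.66 in the control and 7.57, 7.74 and 7.49 at 24 h, a change of −1.47 (SE 0.30, adjusted p = 0.000731). SARD1, WRKY70, PAD4 and EDS1 had changes of −1.27, −1.19, −1.12 and −0.85. FMO1, which makes N-hydroxypipecolate, split the 24 h group, with 8.26 and 8.61 on replicates 1 and 3, 11.32 on replicate 2 and 9.28 to 9.48 in the control.

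Genes of detoxification and of mitochondrial stress went both ways, and replicate 2 stood apart for several of them. Of 37 glutathione S-transferases, which conjugate glutathione to toxic compounds, 13 fell and 5 rose, 48.6% of the list against 43% of all loci. GSTU11 measured 7.52, 6.76 and 6.597 in the control and 9.44, 10.29 and 9.30 at 24 h, a rise of 2.72 (SE 0.50, adjusted p = 0.000296), and GSTU21 fell from 10.46, 10.72 and 10.78 to 8.62, 9.92 and 8.86, a change of −1.52 (SE 0.34). GSTU25 was at 11.96 to 12.20 in the control, 11.61 and 11.68 on replicates 1 and 3 and 13.67 on replicate 2. Without replicate 2 the number of transferases that rose was 2, as it was with slide as a random block. In the mitochondrial list 3 of 10 genes rose and 2 fell (50%, against 43% of all loci), and without replicate 2 the number that rose was 1. AOX1D, an alternative oxidase, rose from 6.62, 6.11 and 6.16 to 8.21, 10.24 and 8.40, by 2.65 (SE 0.74, adjusted p = 0.00666), while AOX1A and NAC13, with rises of 1.02 and 1.25, did not pass without replicate 2 (adjusted p = 0.155 and 0.067). DIC2, a dicarboxylate carrier, had a change of −1.43.

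Senescence genes were higher, with 8 of 15 risen, against 21.9% of all loci. The other 7 did not pass the threshold, and the median change was 0.58. Beside DIN2, SEN1 measured 13.54, 13.50 and 13.51 in the control and 15.32, 14.08 and 15.28 at 24 h, a rise of 1.38 (SE 0.25, adjusted p = 0.0003). NAC6 (ORE1), a factor that drives leaf aging, rose from 10.72, 10.54 and 10.62 to 12.19, 11.96 and 12.07, by 1.45 (SE 0.30, adjusted p = 0.000712). Enzymes of chlorophyll breakdown rose less, ACD1 (PAO) by 0.58 and NYC1 by 0.33. ASN1, a dark-inducible asparagine synthetase, rose by 1.19 (adjusted p = 0.0314), with replicates 1 and 3 at 15.25 and 15.26 and replicate 2 at 13, below the control arrays (13.20 to 13.40), and it did not pass with slide as a random block (adjusted p = 0.0999). Without replicate 2 the rise was 1.94.

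Clock genes rose in 9 of 12 cases, against 21.9% of all loci, with 1 fallen and a median change of 0.34. PRR9 measured 9.43, 9.43 and 9.25 in the control and 10.21, 11.18 and 10.26 at 24 h, a rise of 1.18 (SE 0.33, adjusted p = 0.00696), and PCL1 (LUX), a part of the evening complex, rose from 11.51, 11.50 and 11.46 to 12.29, 12.37 and 12.21, by 0.80 (SE 0.14). PRR5 and PRR3 rose by 0.73 and 0.47. With slide as a random block 5 clock genes rose. The hour of harvest is not given in the sources used here, and its part in these values was not tested.

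Among the genes of abscisic acid and dehydration 11 of 20 fell and 3 rose, against 21.1% and 21.9% of all loci. DREB2A measured 13.58, 13.71 and 13.61 in the control and 11.72, 11.75 and 11.85 at 24 h, a change of −1.86 (SE 0.42, adjusted p = 0.0016). The cold factors CBF2, DREB1A (CBF3) and CBF1 had changes of −1.40, −1.34 and −1.10, and their target KIN2 of −1.04. CBF2 and CBF1 did not pass without replicate 2 (adjusted p = 0.078 and 0.0681). HAI1, a phosphatase that damps abscisic acid signaling, rose by 1.05 (adjusted p = 0.0196).

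Seed markers were mixed, with 2 of 15 risen and 2 fallen, 26.7% of the list against 43% of all loci. PAP85, a vicilin-like storage protein, measured 6.17, 5.80 and 6.56 in the control and 12.69, 6.43 and 12.64 at 24 h. Its rise of 4.41 (SE 1.28, adjusted p = 0.00875) came from replicates 1 and 3, and replicate 2 lay among the control arrays. In the flavonoid list 2 of 15 genes rose and 3 fell, 33.3% of the list and so also below the 43% of all loci. The regulators MYB111 and TT8 rose by 1.46 and 1.36, and TT4, chalcone synthase at the entry of the pathway, had a change of −0.42 (adjusted p = 0.00165).

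A list of 86 genes that the study names as late peroxisome-dependent split almost evenly, with 25 higher, 28 lower and a median change of −0.06. The list had 61.6% of its genes past the threshold, against 43% of all loci. It was compiled from several transcriptomes, the 24 h arrays used here among them, and is not independent evidence. Its largest fall was that of LOX4 and its largest rise that of ChlAKR, an aldo-keto reductase of the chloroplast, which measured 10.24, 10.07 and 10.05 in the control and 12.16, 12.87 and 11.99 at 24 h, a rise of 2.22 (adjusted p = 0.0022).

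Whether the Cd response differed from that of WT was tested as the difference of both 24 h responses, which share no array. The difference passed the threshold for 10223 features (27.5%), 14.9% with a higher and 12.7% with a lower response on the 35S::GOX2 arrays, and 3433 (9.25%) also differed by at least 1. The WT response itself was smaller, with 1194 features past the threshold (3.22%). Of these, 450 also passed in the 35S::GOX2 comparison, which is 37.7% of the WT calls, against 43.9% of all features, and 2.76% of the 35S::GOX2 calls. The directions were the same for 292 and opposite for 158.

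CYP82C4, FRO2 and DIN2 passed the threshold on the arrays of both labels. CYP82C4 had changes of −3.62 on the 35S::GOX2 and −3.86 on the WT arrays (difference 0.24, SE 1.29, adjusted p = 0.909), FRO2 of −3.09 and −3.35, and DIN2 of 3.53 and 3.88. These differences had standard errors of 1.28 to 1.36, which leaves room for large ones. Other lists held many genes whose response differed. The response was lower than in WT for 18 of 29 sulfur genes, 14 of 26 jasmonate genes, 15 of 20 rapid stress genes and 16 of 32 heat shock genes, against 12.7% of all features. SULTR1;2 fell by 0.51 on the 35S::GOX2 arrays and rose by 0.88 on the WT arrays, a difference of −1.39 (adjusted p = 0.00039), and GSTU21 had changes of −1.52 and 1.51, a difference of −3.03 (adjusted p = 0.00055). The ferritins FER1 and FER4 fell by 0.78 and 0.74 on the WT arrays, and the differences of 0.83 and 0.90 passed the threshold (adjusted p = 0.00046 and 0.00079). The median WT change was 0.13 for the sulfur, 0.06 for the jasmonate and 0.16 for the rapid stress list. WT control and WT 24 h arrays were on the same slide, unlike those of 35S::GOX2, and the part of the slide in these differences was not tested.

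**Figure D5:**
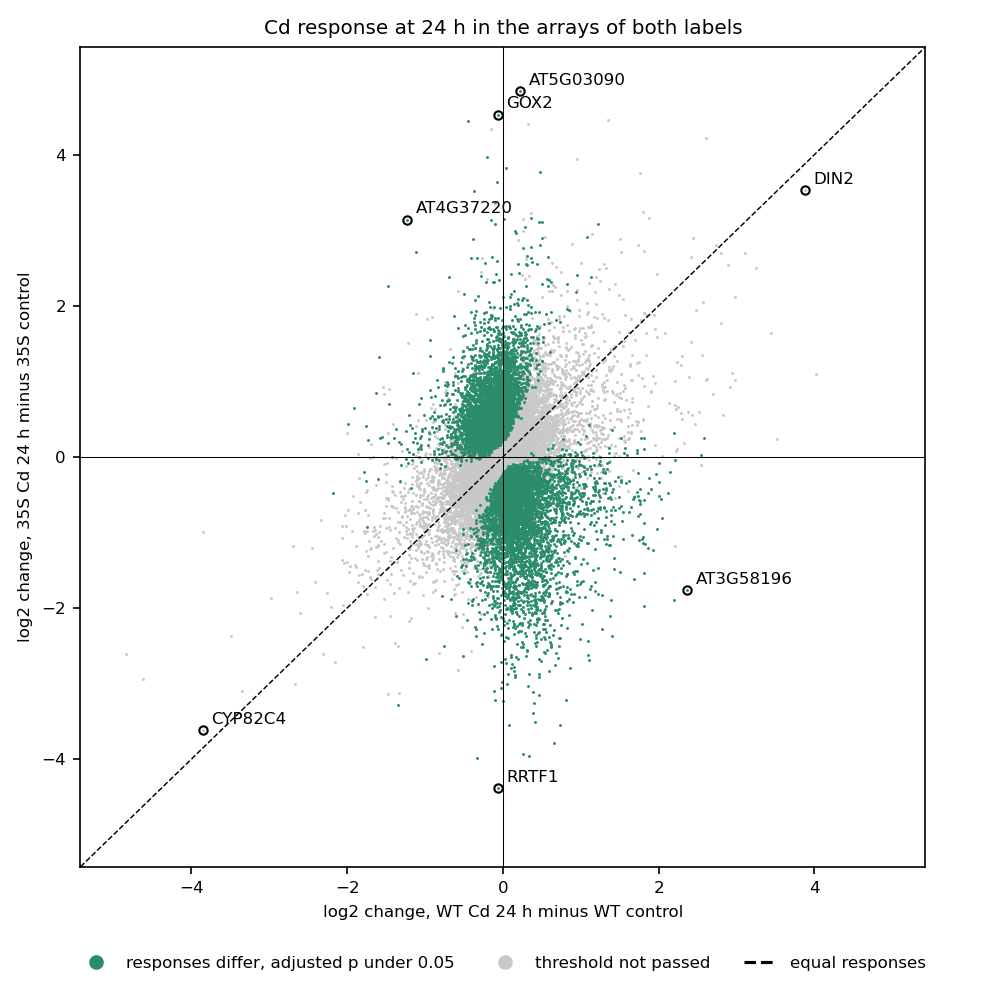
Change at 24 h of Cd on the arrays labelled 35S::GOX2 (y axis, log2) against that on the arrays labelled WT (x axis, log2) for every feature, in green where the difference passed an adjusted p of 0.05 (10223 features), with equal responses on the dashed line. DIN2 and CYP82C4 lie near the line, and GOX2, AT5G03090 and RRTF1 lie on the vertical axis, with WT changes of −0.06, 0.22 and −0.07.

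The 24 h arrays were on the same slide as the 35S::GOX2 arrays with the short exposure, and this comparison gave far fewer calls. Of all features 1685 (4.54%) passed, 708 (1.91%) higher and 977 (2.63%) lower at 24 h, and 204 (0.55%) also changed by at least 1. GOX2 and AT5G03090 differed by 0.33 and 0.26 between the times (adjusted p = 0.098 and 0.31), and both were high at both times, with means of 13.88 and 11.80 after the short exposure. As lower at 24 h passed 8 sulfur genes, 7 rapid stress genes and 5 jasmonate genes, of which 8, 6 and 5 had also fallen against the control. With the replicate number as a block these were 5, 3 and 4 genes. ATSDI1 had a change of −1.83 (adjusted p = 0.033) and ERF13 of −2.27 (adjusted p = 0.04). THA1, BCAT-2 and GLYI7 were higher by 3.48, 3.39 and 3.88 (adjusted p = 0.044, 0.039 and 0.033). Replicate 2 of the short exposure correlated at −0.34 and −0.37 with replicates 1 and 3 of its own group. The calls moved with single arrays. Without replicate 2 of the short exposure 8495 features passed, without replicate 2 at 24 h 4833 and without replicate 1 at 24 h 5. Without replicate 3 at 24 h 0 features passed by limma, with 7101 at an unadjusted p under 0.05.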

How the data were processed

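RNA of 27 samples was hybridized to 27 single-color NimbleGen arrays. The intensity values of 37118 features were deposited by the authors as linear RMA values, per the file headers and names, with 4 probe pairs behind 26409 features and 3 behind 10597. Settings of RMA and the build behind the probes are not given in the sources used here, so that how far the arrays were normalized before deposit is known only from their medians. The submitters' processing notes name limma with no role or version. The table of the series and the array files held the same values, and 0 columns belonged to other series.

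Values were log2-transformed and quantile-normalized again over the 27 arrays, since the array medians spread by more than 0.1. Comparisons were contrasts of 9 group means in limma 3.58.1 (R 4.3.3, jsonlite 2.0.0) with 18 residual degrees of freedom and Benjamini-Hochberg adjustment over all features. Gene symbols came from a RefSeq table (31993 of 32627 loci matched). The feature with the highest mean stood for a locus in a list. Depth has no meaning for arrays, whose number (3 a group) limits the precision. Where nothing says that replicates came from separate cultures, p-values measure the spread between these samples, which may be technical. Replicate numbers did not pair control and 24 h arrays, whose same-numbered deviations correlated at 0.23, 0.07 and −0.11. Those of the short exposure and 24 h correlated at 0.34, 0.51 and 0.37, against at best 0.39, −0.38 and 0.30 with another number. Only replicate 2, which diverged in both groups, stood far apart. This check therefore cannot settle whether the numbers pair these groups.

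Named were GOX2, its family and catalases, the 12 largest rises and falls among features past the threshold whose arrays did not overlap, up to 4 called members of each list by size, and up to 6 differences of responses each way. Further members of lists were named after their values were seen. Members and lists were chosen with earlier results of these data known. The 24 lists include 1 of the study. Of the listed genes 1, a heat shock gene, was not on the array. On simulated data of 37118 features the main fit recovered 32.8%, 82.1% and 97.0% of changes of 0.5, 1 and 2 on the log2 scale, with 6 false among 147 calls. The simulation had independent noise, few changed features, no shift between slides and no diverging replicate. These rates therefore need not hold for the measured arrays. The alternatives were the deposited values without further normalization, the series table, a filter on the dimmest 25%, averaging the features of 1 locus, a replicate block, slide as a random block, only the groups compared, each array left out and a t-test. The methods of the study name a t-test for quantitative experiments and give no model for the arrays. Planned promoter sequences were not used here. A member of the peroxisome list that the naming rule gives is not reported here.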

Additional observations from a re-analysis of the deposited data

Results flagged for a closer look

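The 24 h response on the arrays labelled 35S::GOX2 was tested against that of WT, and the difference itself passed the threshold for 10223 features. Higher responses by this test included AT5G15420 with a difference of 4.90 (adjusted p = 1.14e-07), AT5G03090 with 4.62 (adjusted p = 2.34e-11) and GOX2 with 4.59 (adjusted p = 4.52e-13). AT4G15990 differed by 4.17 (adjusted p = 0.00378) and AT1G43675 by 3.89 (adjusted p = 0.0177). AT4G37220, at 8.28, 8.23 and 8.16 in the control and 13.24, 7.54 and 13.31 at 24 h, differed by 4.37 (adjusted p = 0.0362).

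Lower responses were found for AT5G14602 (−4.44), RRTF1 (−4.32), sks7 (−4.30), AT2G05370 (−4.28) and AT2G04370 (−4.19), each past the threshold. AT3G58196 differed by −4.13 (adjusted p = 0.0316), with 6.42, 9.52 and 8.06 in the 35S::GOX2 control and 5.24, 8.37 and 5.10 at 24 h. The 35S::GOX2 control and 24 h arrays were on different slides and the WT arrays on one, and the part of the slide in these differences was not tested.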

How the results depend on the processing

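For the control comparison, 10594 features passed with slide as a random block (correlation 0.236), 9173 with the dimmest 50% left out (an alternative added after the data were seen), 3168 with a change of at least 1 and 10485 by the t-test after Benjamini-Hochberg (16405 unadjusted). Leaving out 1 array gave 12455 to 16307. For the difference from WT, 6175, 5330 and 3433 passed under the first 3 of these, and 6981 to 12685 without 1 array. For 24 h against the short exposure, 204 changed by at least 1, and with only the groups compared 0 passed by limma (4356 at an unadjusted p under 0.05). Leaving out 1 array gave 0 to 8495, with 0 without replicate 1 or 3 of the short exposure (5423 and 5615 unadjusted). These counts include fewer features or arrays by construction where either was left out. Otherwise the cause was not tested. A fixed block for slide could not be fitted to the control comparison.

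With the replicate number as a block 16542, 10446 and 1451 features passed in the 3 comparisons. The block did not end a call of a named gene of the control comparison, nor those of ATSDI1, ERF13, THA1, BCAT-2 and GLYI7 at 24 h against the short exposure.

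Of 126 named genes and features of the control comparison, 0 called values changed sign under the alternatives. With slide as a random block 112 kept their side of the threshold and 14 lost it. Without replicate 2 at 24 h 111 kept it, 11 lost it (IRT1, BHLH101, GSTU9, GSTU2, NAC13, AOX1A, CBF2, CBF1, SESA4, EM1 and GSH1) and 4 gained it. Leaving out any other array lost 6 to 9, mostly AGT, LSU1, BHLH101, AOX1A, ASN1 and GSH1, and PAP85 without replicate 1 or 3 at 24 h. Among differences of responses, AT4G37220 and AT3G58196 did not pass with slide as a random block, nor AT1G43675 without replicate 1 or 3 at 24 h. AT4G37220 also failed when any single array other than replicate 2 at 24 h was left out, and AT3G58196 when most single arrays were.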

Other observations

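Classes of features that do not code for protein differed in their shares. Of 234 features of long non-coding RNAs, 122 (52.1%) were higher and 26 (11.1%) lower, and of 61 features of snoRNAs, which guide modification of ribosomal RNA, 34 (55.7%) were higher and 2 (3.28%) lower. Among 30891 features of protein-coding genes 25.4% were higher and 20.7% lower. MicroRNA features (20.5% of 151 higher, 19.2% lower) and tRNA features (14.8% of 169 higher, 10.1% lower) had no such lean or a small one, and transcribed pseudogenes went the other way, with 11.4% of 922 higher and 30.7% lower. By mean intensity, 11.7% of the dimmest 9279 features were higher and 15.8% lower, against 21.1% and 18.7% of the brightest 9280. The shares were highest in the middle of the range (31.3% and 24.3%, then 30.4% and 22.2%), where the long non-coding RNAs and snoRNAs lay by their median, and the part of intensity in these shares was not tested.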
